A study of Gallus gallus with 7 samples.

Results

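The genes described here were those at least 2-fold higher in chick limb buds given miR-455-3p mimic than in limb buds given control mimic. They were chosen by the deposited values themselves. A gene was taken when its mean was 50 or more normalized counts in the miR-455-3p mimic libraries, its mean log2(normalized count + 0.5) was higher than in the control mimic libraries by 1 or more, and its lowest mimic value lay above its highest control value. Of the 17190 chicken genes in the files, 106 met this rule, and they are called the mimic-high genes below. Because these values chose the genes, the difference between mimic and control in the same 7 libraries is given as a description, and no test of it is used as support.

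The libraries were RNA sequencing of wild-type Gallus gallus limb buds. The 4 control libraries (control 1 to 4) came from limb buds microinjected with control mimic, and the 3 mimic libraries (mimic 1 to 3) from limb buds microinjected with miR-455-3p mimic, a synthetic RNA that supplies the mature microRNA. In the series record injection was at Hamburger Hamilton stage 18 to 19 and dissection 24 hours later at stage 24 to 25. A slightly later stage of injection is named in the paper. The injection, the stage and the wild-type background were shared by both groups, and the sources do not say whether a library held the buds of 1 embryo or of several, so the spread between libraries may be partly technical. No library of uninjected buds was analysed here.

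MicroRNAs are short RNAs that guide Argonaute proteins to messenger RNAs carrying a match to their seed, and so lower the stability or translation of those targets. Whether the mimic-high genes carry such a match was not read here, and how they came to be higher was not tested. The gene of miR-455 lies within an intron of COL27A1, a fibrillar collagen gene of cartilage, and the microRNA is known from chondrocytes and developing skeletal tissue. At the stages sampled, the limb bud is a growing core of mesenchyme under an ectodermal jacket, with the first cartilage condensations forming inside. Since whole buds were read, a gene with more RNA per cell and a gene with more cells expressing it cannot be told apart.

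The files name genes only by Ensembl identifier, and the gene table used here paired 0 of them with a symbol. The mimic-high genes are therefore described by their values, by their place in an order and by the number within the identifier. The markers of mesenchyme, cartilage, muscle, blood and ectoderm, and the genes of the response to double-stranded RNA, could not be read, so the labelled tissue was not checked. Only ENSGALG00000050267 and ENSGALG00000054542 are given by identifier.

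Library depth, estimated from the value that 1 read takes in each library, ran from 14879929 reads in control 3 to 21363143 in control 4, and the 3 mimic libraries lay within this range. Control 3, control 4 and mimic 3 shared 22 genes that reached at least 50 normalized counts there and at most 5 in the remaining libraries, so the libraries numbered 1 and 2 were of one kind and those numbered 3 and 4 of another. Both kinds occur in both groups. Control 3 also stood apart from its group, with a chi-square per gene of 25.6 to 31.7 against the other controls, which differed among themselves by 9.10 to 18.6. Without control 3 the rule took 99 genes, 84 of them shared with the 106.

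The rule took few genes. A mean of at least 50 normalized counts on miR-455-3p mimic was reached by 11703 genes. Of these, 121 were higher by 1 or more on the log2 scale, and 15 of these were left out because the groups overlapped. The same rule turned round, for genes lower on the mimic, took 14 genes. All 106 mimic-high genes reached 5 normalized counts in 3 or more libraries and entered the fit over 14503 genes, and 0 of them stood at 0 in any library. In that fit (limma with Benjamini-Hochberg adjustment) 100 of the 106 had an adjusted p under 0.05 in the higher direction, against 9.18% of all genes tested. The rule used the same contrast, so nothing is read from that count.

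The mimic-high genes were already expressed in control limb buds. Their control means ran from 16.2 to 3624 normalized counts with a median of 208, and 0 genes had a control mean under 10. A mean of 38.5 came mainly from control 3, at 138 normalized counts against 4.22 to 6.11 in the other controls of that gene. Of the 106, 13 lay at 10 to 50 normalized counts on control mimic, 17 at 50 to 100, 37 at 100 to 300, 29 at 300 to 1000 and 10 at 1000 or more. These levels are not corrected for transcript length, so their order among genes mixes abundance with length. On miR-455-3p mimic the means ran from 50.8 to 8476 with a median of 494. All genes with a mean of 50 or more on the mimic had a median control mean of 683, which was higher than that of the mimic-high genes. The rule keeps control values below mimic values, so this order is partly built in.

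**Figure D1:**
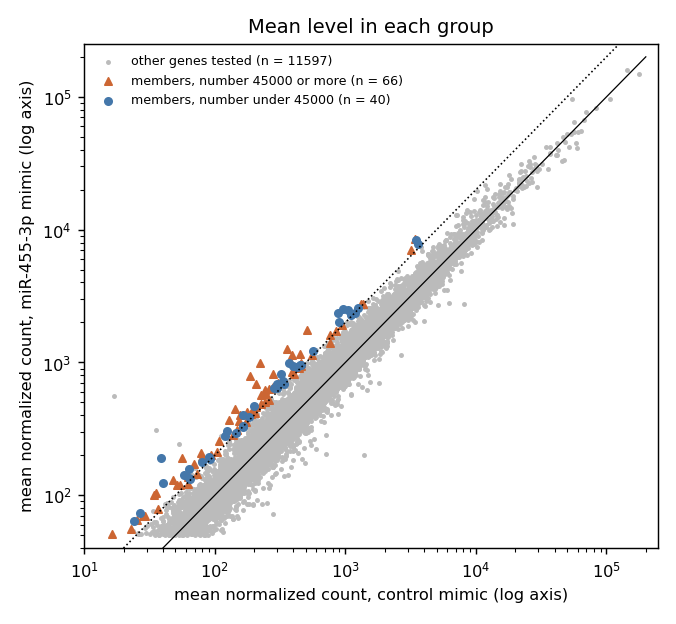
Mean normalized count of each gene in the 3 miR-455-3p mimic libraries (vertical, log axis) against the 4 control mimic libraries (horizontal, log axis), with a solid line at equal means and a dotted line at a ratio of 2. The 106 mimic-high genes run along the dotted line from control means of 16.2 to 3624, the 66 with identifier numbers of 45000 or more as triangles and the 40 others as dark circles, among 11597 other genes in grey.

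ENSGALG00000050267 had the highest mean on miR-455-3p mimic. Control 1 to 4 gave 3504, 3452, 3696 and 3022 normalized counts, and mimic 1 to 3 gave 8734, 8391 and 8302. The groups were far apart for this gene, since the lowest mimic library lay 1.17 above the highest control library on the log2 scale. Its mean was 3419 ± 284 (SD, n = 4) on control mimic and 8476 ± 228 (SD, n = 3) on miR-455-3p mimic, a log2 difference of 1.31. The gene with the highest control mean was close to it in level. The control libraries read 3723, 3442, 3597 and 3733 normalized counts and the mimic libraries 8037, 7962 and 7493. Its controls lay within an SD of 0.05 on the log2 scale, as did its mimic libraries, and its log2 difference was 1.11. Counting error is small at such levels, and the spread between libraries of these 2 genes was small as well.

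ENSGALG00000054542 had the widest gap between the groups. In order of number, the controls read 269, 242, 162 and 221 normalized counts and the mimic libraries 1144, 968 and 862. Even the lowest mimic library lay 1.68 above the highest control library on the log2 scale, and the log2 difference of the means was 2.16. Its mean was 224 ± 45.2 normalized counts (SD, n = 4) on control mimic and 991 ± 143 (SD, n = 3) on miR-455-3p mimic.

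The gene at the median log2 difference had moderate levels in both groups. Its controls read 329, 243, 303 and 280 normalized counts and its mimic libraries 655, 669 and 669, a log2 difference of 1.21. The mimic libraries of this gene were nearly equal, with an SD of 0.02 on the log2 scale that lay below the lower quartile of 0.07 over the mimic-high genes, while its controls were spread over an SD of 0.19 on the log2 scale. The gene with the least spread within groups read 239, 245, 247 and 237 normalized counts on control mimic and 509, 484 and 513 on miR-455-3p mimic. It was among the smaller differences, at 1.05 on the log2 scale.

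The gene with the largest log2 difference, 3.82, was also the one with the greatest spread. The controls read 5.96, 6.11, 138 and 4.22 normalized counts and the mimic libraries 139, 151 and 288. Control 3 was as high as mimic 1 for this gene, so the groups were parted by only 0.015 on the log2 scale, and without control 3 the log2 difference was 4.96. The arithmetic means were 38.5 and 192 normalized counts, so their ratio was much smaller than the 14.1-fold of the log2 scale. The gene with the next largest log2 difference, 2.19, read 285, 84.4, 244 and 126 normalized counts on control mimic and 537, 731 and 1104 on miR-455-3p mimic. Its groups were well parted, with wide spread in both. The gene with the lowest control mean read 19.4, 13.1, 22.2 and 10.2 normalized counts on control mimic and 66.9, 42.5 and 43.0 on miR-455-3p mimic, a log2 difference of 1.65. Few reads lie behind each value of this gene. Its lowest mimic library lay 0.92 above its highest control on the log2 scale, against a median gap of 0.81 over the mimic-high genes.

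**Figure D2:**
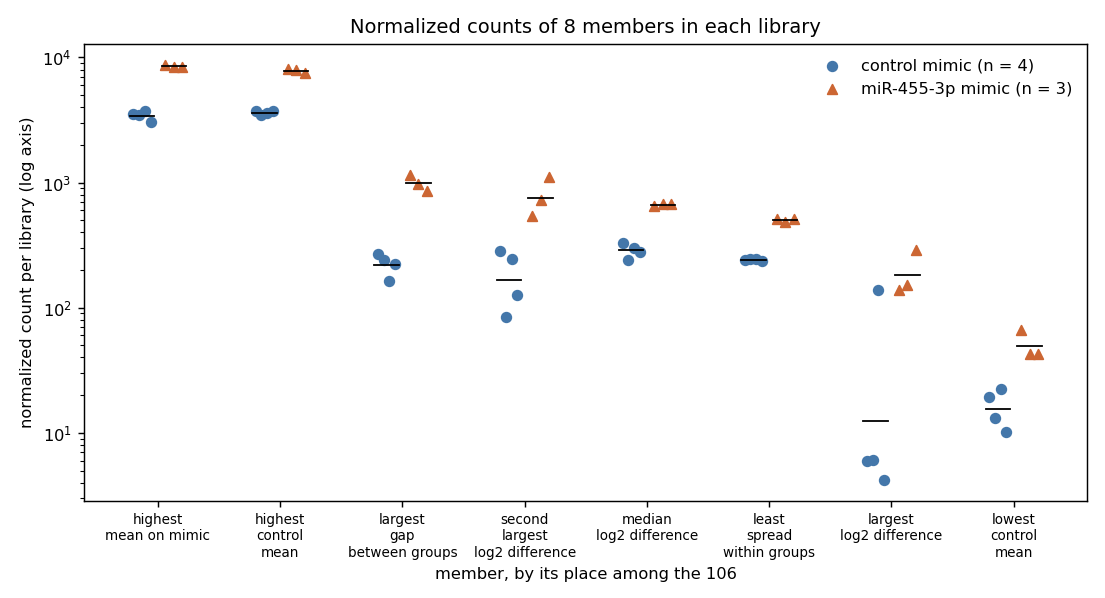
Normalized counts of 8 mimic-high genes in each library (vertical, log axis), with circles for the 4 control libraries, triangles for the 3 mimic libraries and a line at the mean taken on the log2 scale. The groups are parted in each gene, by 1.68 on the log2 scale in the gene with the largest gap and by 0.015 in the gene with the largest log2 difference, where control 3 lies beside mimic 1.

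The differences were packed close above the threshold. Their median was 1.21 on the log2 scale, the quartiles were 1.08 and 1.37, and 91 of the 106 lay under 1.5. Another 12 lay between 1.5 and 2, and 3 at 2 or more. The gene just inside the threshold had a log2 difference of 1.0079 and the gene just outside it 0.9996. At the other criteria, the lowest mimic mean inside was 50.8 and the highest outside 49.2 normalized counts, and the smallest gap inside was 0.015 and the nearest gene outside had an overlap of -0.020. These neighbours show that the list is a slice of a continuous range. The difference was largest where the controls were lowest, with a median log2 difference of 1.47 for the 13 genes with control means of 10 to 50 and 1.10 for the 10 genes at 1000 or more. The rule forces this in part, since a gene with a low control mean reaches 50 on the mimic only through a larger difference, so nothing is read from it. The spread between controls changed with level too, from a median SD of 0.50 to 0.13 on the log2 scale over the same bands.

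The values were tighter among the mimic libraries than among the controls. For the mimic-high genes the SD on the log2 scale had a median of 0.13 among the mimic libraries (0.01 to 0.57) and 0.24 among the controls (0.03 to 2.29). The medians over all genes with a mean of 50 or more on the mimic were 0.11 and 0.14. The SD was larger among controls than among mimic libraries in 82 of the 106 genes. The highest mimic value was within 1.5-fold of the lowest in 93 genes, and the highest control value was within 1.5-fold of the lowest in 57. The gap between the groups was 0.5 or more on the log2 scale in 91 genes, 1 or more in 24 and under 0.1 in 3. The rule asks for parted groups, which limits how far any library can stray, so these counts describe the list and are not evidence for it. They were not taken over all genes. The controls were also more libraries than the mimic and had lower values, and either can widen their range on the log2 scale. The part of each in these counts was not tested.

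Each mimic library carried the difference to about the same extent. Over the 106 genes the median distance from the control mean was 1.21 in mimic 1, 1.25 in mimic 2 and 1.20 in mimic 3 on the log2 scale. None of the mimic libraries was highest throughout, since mimic 1 was the highest in 40 genes, mimic 2 in 39 and mimic 3 in 27. These were 37.7%, 36.8% and 25.5%, against 34.1%, 31.2% and 34.7% of the 11703 genes with a mean of 50 or more on the mimic. Mimic 3 was the lowest mimic library in 39.6%, against 30.8%. Summed over the genes, the normalized counts were 103084, 105882 and 101950 in mimic 1 to 3 and 48591, 44521, 41896 and 44535 in control 1 to 4. This sum was 0.231% to 0.272% of a control library and 0.555% to 0.575% of a mimic library, and without the 2 genes of highest mimic mean 0.194% to 0.231% and 0.464% to 0.483%. The rule puts every mimic value of a gene above its control values. The parting of the sums is therefore built in, as is part of the evenness of the mimic libraries, and nothing is read from either.

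The control libraries were less even. Control 3 was the lowest control in 53 of the 106 genes , against 33.5% of the 11703 genes with a mean of 50 or more on the mimic. Control 1 was the highest control in 48 (45.3%), against 23.1%. The median distance from the control mean was 0.14 in control 1, -0.01 in control 2 and -0.12 in control 3 on the log2 scale, and that of control 4 rounded to 0. Control 3 also had the fewest estimated reads, 14879929 against 18011786 in control 1. Control 4 had the most, 21363143, and was the highest control in 13 of the 106 genes (12.3%), against 26.8% of the 11703. The part of depth in this order was not tested. Leaving out control 3 and applying the rule again gave 99 genes. Among them the median correlation described further on was 0.10 and the share of high numbers 58.6%.

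**Figure D3:**
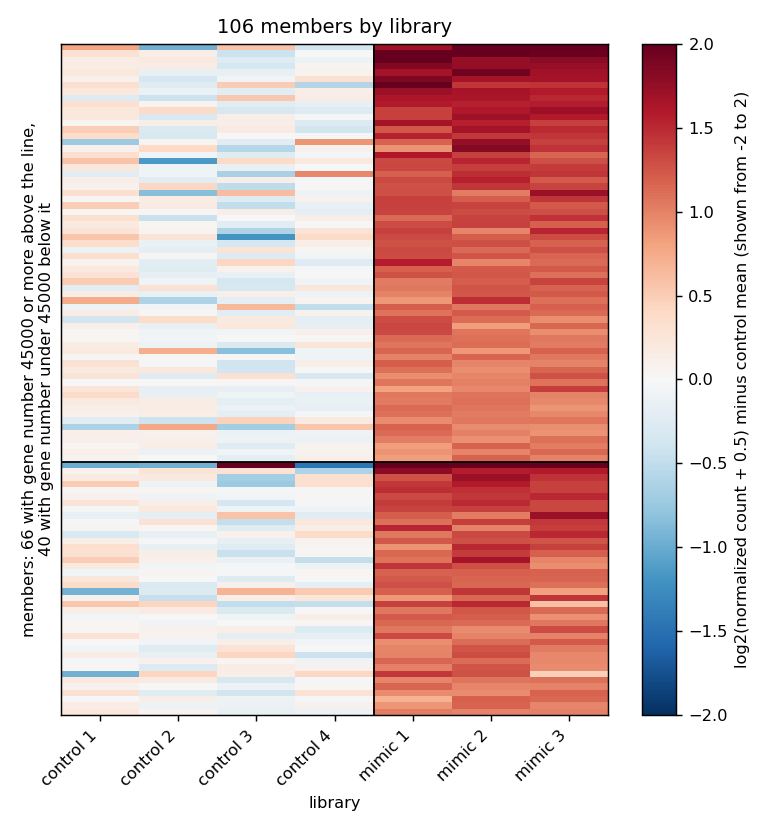
Colour map of the 106 mimic-high genes (rows, in falling order of log2 difference within each block) in the 7 libraries (columns), as log2(normalized count + 0.5) minus the mean of the 4 controls, shown from -2 to 2. The 66 genes with identifier numbers of 45000 or more stand above the horizontal line and the 40 others below it, and in both blocks the 3 mimic columns are of like strength, while control 1 is slightly above and control 3 slightly below the other controls.

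Within each kind of library the difference was of similar size. Between mimic 1 and 2 and control 1 and 2 the median log2 difference of the 106 genes was 1.19, and 82 genes were higher by 1 or more. Between mimic 3 and control 3 and 4 the median was 1.27, and 94 genes were higher by 1 or more. Over the 11703 genes with a mean of 50 or more on the mimic, 1.09% and 1.70% were higher by 1 or more in these comparisons. The lowest single values among the mimic-high genes were 0.55 and 0.21, so every one was higher on the mimic within both kinds, as the rule itself fixes. The rule was set on these same libraries, so it also holds up the sizes and counts, and nothing is read from their likeness.

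To read the difference in libraries whose values were not entered in the choice, the rule was applied to the libraries numbered 1 and 2 alone. The genes were then followed in those numbered 3 and 4. The rule itself was set with earlier results of these data known, so this reading is not fully independent. The rule took 119 genes from control 1, control 2, mimic 1 and mimic 2. In mimic 3, set against control 3 and control 4, 75 of the 119 (63.0%) were higher by 1 or more on the log2 scale, against 1.70% of the 11703 genes with a mean of 50 or more on the mimic. Their median log2 difference there was 1.13, against 1.22 in the libraries that chose them and -0.02 over all those genes. Mimic 3 lay above both controls in 98 (82.4%), against 36.0%. The values ran from -2.31 to 3.50, so some genes chosen in one kind of library went the other way in the other. With only 1 mimic library in this comparison the mimic has no spread of its own, and limma called 0 genes higher (0% of 14503). The counts at an unadjusted p under 0.05 were 75 of the 119 genes and 886 of all genes (6.11%), and nothing is read from them.

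In the reverse direction the rule took 211 genes from control 3, control 4 and mimic 3. In mimic 1 and 2 against control 1 and 2, 77 of them (36.5%) were higher by 1 or more, against 1.09% of the genes with a mean of 50 or more on the mimic, and 152 (72.0%) had no overlap, against 28.6%. Their median log2 difference was 0.85, lower than the 1.19 in the libraries that chose them. Here limma, fitted on those 4 libraries over all genes and chosen after seeing the counts, called 57 of the 211 genes higher at an adjusted p under 0.05 (27.0%), against 2.27% of the 14503 genes tested. The 14503 include genes with a mean under 50 on the mimic, unlike the 11703 behind the other shares, so this background is not matched for level. The values of these 4 libraries were not entered in the choice of the genes, although the authors' normalization covers all 7. The rule was set with earlier results of these data known, so these shares are not a fully independent check. Of the 106 mimic-high genes, 81 were also in the list of 119 and 93 in the list of 211.

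**Figure D4:**
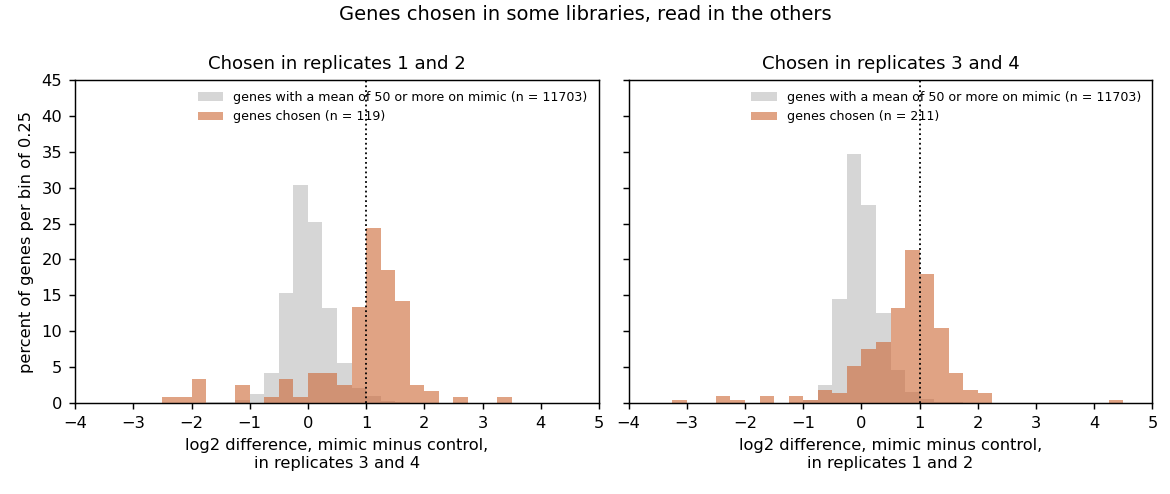
Percent of genes per bin of 0.25 (vertical) by log2 difference, mimic minus control (horizontal), for genes chosen in some libraries and read in the others. On the left the 119 genes chosen in replicates 1 and 2 and read in replicates 3 and 4 have a median of 1.13, and on the right the 211 genes chosen in replicates 3 and 4 and read in replicates 1 and 2 have a median of 0.85, while the 11703 genes with a mean of 50 or more on the mimic (grey) centre on -0.02 in both. The dotted line marks 1.

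Apart from the shared difference, the mimic-high genes varied together only weakly. After the mean of each group was taken away, the correlation between 2 of the genes across the 7 libraries had a median of 0.14 over 5565 pairs, with quartiles of -0.28 and 0.51. Without control 1 the rule was applied again and took 129 genes, and their median was 0.02. The original genes were not read without control 1, so the part of that library in the 0.14 was not tested. Over all pairs of the 11703 genes the median was 0.00, with quartiles of -0.37 and 0.38. Of the pairs of mimic-high genes 59.0% were positive, and 6.88% were above 0.8 against 3.75% of all pairs. The first principal component of these deviations held 38.4% of their variance, against 31.2% over all 11703 genes. All pairs share the same 7 libraries and their depths, and taking away 2 group means leaves few free values, so these figures are a description of these libraries. The higher values of control 1 and the lower values of control 3 described above enter these correlations, and their part in them was not tested.

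The identifiers of the mimic-high genes were unlike those of most genes measured. Ensembl gives a gene model a number when it first enters the annotation, so a high number marks a model that was added late. Late additions to vertebrate annotations hold many models of long non-coding RNAs, but the type of these genes was not known here. Of the 106 mimic-high genes, 66 (62.3%, 95% exact binomial interval 52.3 to 71.5) had a number of 45000 or more. The share was 14.4% of the 14503 genes tested (13.8 to 15.0) and 10.9% of the 11703 genes with a mean of 50 or more on the mimic (10.3 to 11.4). The median number was 47922 among the mimic-high genes and 16392 among the genes tested. Neither rule nor fit used the number, but the boundary of 45000 was chosen with earlier results of these data known. Genes are also not independent replicates, and the intervals cover counting error only.

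The excess was present at each level of expression. High numbers are commoner among low genes, and made up 22.8% of all genes at a mimic mean of 50 to 100, 16.6% at 100 to 300, 9.72% at 300 to 1000 and 6.43% at 1000 or more. Among the mimic-high genes the shares in the same bands were 6 of 8, 59.3% (16 of 27), 63.8% (30 of 47) and 58.3% (14 of 24). The exact binomial interval of the mimic-high genes lay above that of all genes in each band, though it was wide for the 8 genes (34.9% to 96.8%). These intervals cover counting error only, all genes include the mimic-high ones, and no test was made.

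The share also changed with the difference between the groups. Among the 11703 genes it was 6.20% at a log2 difference of -0.5 to 0, 10.9% at 0 to 0.5, 36.5% at 0.5 to 1 and 62.0% at 1 or more. On the other side it was 16.3% at -1 to -0.5 and 30.6% (15 of 49) below -1, so high numbers were also commoner among the genes much lower on the mimic. The bound on the mimic mean drops genes that are lowered past it, which thins the bins on this side. The part of the bound in these shares was not tested. Of the 14 genes lower by the rule turned round, 7 had a high number (interval 23.0% to 77.0%), an interval that overlaps that of the mimic-high genes.

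**Figure D5:**
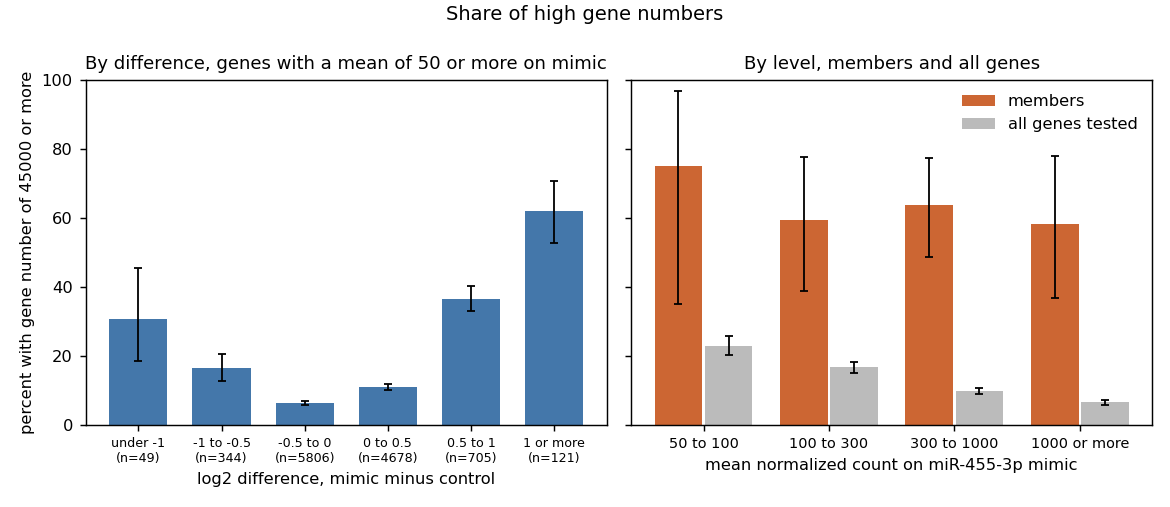
Percent of genes with an identifier number of 45000 or more (vertical), with 95% exact binomial intervals as error bars. On the left the 11703 genes with a mean of 50 or more on the mimic are grouped by log2 difference, from 6.20% at -0.5 to 0 up to 62.0% at 1 or more, and on the right the mimic-high genes (58.3% at 1000 or more) stand beside all genes tested (6.43% to 22.8%) in 4 bands of mean normalized count on the mimic.

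The 66 mimic-high genes with high numbers and the 40 with lower numbers were alike in most measures. Their median log2 differences were 1.24 and 1.16, their median control means 205 and 292 normalized counts, and their median control SDs 0.24 and 0.22 on the log2 scale. The median gap between the groups was 0.81 and 0.79. Both sets passed the same bounds on difference, overlap and mimic mean, so their likeness in difference and gap is partly built in, and nothing is read from it. Correlations of deviations between genes of the 2 sets had a median of 0.12, against 0.18 within the first and 0.07 within the second. Of the 40, 20 had numbers from 30000 to 40000, or 1.02% of the 1961 genes in that band. The share of mimic-high genes was 0.201% under 10000, 0.0737% (2 of 2713) from 10000 to 20000 and 0.854% from 20000 to 30000. It was 0.238% from 40000 to 45000, 5.28% from 45000 to 50000 and 5.11% from 50000 to 60000.

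Among the genes that passed the bound on the mimic mean, those with high numbers were also shifted outside the list. Among the 1206 genes with a number of 45000 or more that were not mimic-high, the median log2 difference was 0.16, and 22.1% were called higher and 5.64% lower by limma at an adjusted p under 0.05. Among the 10391 others with lower numbers the median was -0.04, with 9.17% called higher and 7.13% lower. Summed over the 1206 genes, the normalized counts were 5.33% to 5.46% of a control library and 6.23% to 6.32% of a mimic library, so the groups did not overlap in this sum. The bound was set on the mimic mean alone, so a gene near it is kept when higher on the mimic and dropped when lower. High numbers are commoner near the bound, so it can push their median, counts called and sum toward higher on the mimic. How much of the shift comes from the bound was not tested. What links high numbers to the difference was not tested either.

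In the libraries the rule had not used, the share higher by 1 or more was larger among chosen genes with high numbers. The boundary of a high number was chosen with earlier results of these data known. The split by number is therefore not independent of the libraries read. Of the 119 genes chosen in replicates 1 and 2, 70 had high numbers, and 48 of these (68.6%) were higher by 1 or more in replicates 3 and 4, against 27 of the 49 with lower numbers (55.1%). The backgrounds differed in the same direction, at 8.25% of all high-number genes and 0.901% of the others. In the reverse reading the shares were 43.6% (48 of 110) and 28.7% (29 of 101), over backgrounds of 5.82% and 0.518%. The backgrounds include the mimic-high genes and were bounded by the mean of all mimic libraries, those read among them. No test of the difference between these shares was made.

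The last feature read was whether the values were whole reads. The authors' counts are estimates in which reads that match several transcripts are divided between them, and a gene whose reads were not divided with another has a whole number of reads once its value is divided by that of 1 read. Of the 742 values of the mimic-high genes 64.8% were whole within a tolerance of 0.001 reads, against 49.8% of those of the 11703 genes, and 66 of the 106 genes were whole in all 7 libraries (62.3%), against 47.7%. The 66 genes had a median log2 difference of 1.19, close to the 1.22 of the 40 that were not whole throughout. High numbers made up 56.1% of the 66 (37 genes), against 11.1% of all genes that were whole throughout, and 72.5% of the 40 (29 genes), against 10.6%. The part of divided reads in the difference and in the share of high numbers was not tested.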

How the data were processed

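RNA sequencing of 7 chick limb bud libraries was read from 1 deposited file per library. The authors deposited normalized counts, a signal for each of 17190 Ensembl genes. Per the labels they were made with FastQC, Trim Galore, kallisto and sleuth on GRCg6a. The sources used here give no version, annotation release, filter or normalization method. No scaling was added, and any fault in the deposited scaling would be carried into each difference.

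The value of 1 read was taken as the step of which most low values are whole multiples. In each library 52.3% to 53.2% of values above 0 were whole within 0.001 reads, so the reads could not be recovered and a count model was not fitted. Genes reaching 5 in 3 or more libraries were fitted with limma 3.58.1 in R 4.3.3 (trend) on log2(value + 0.5), with Benjamini-Hochberg adjustment over 14503 genes. The fit was tested on simulated data. Intervals are exact binomial (scipy 1.17.1).

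The genes, their rule and the boundary of 45000 were chosen with earlier results of these data known. The 2 identifiers printed are those of the highest mimic mean and the widest gap. The gene table (25635 genes) matched 0 identifiers, so gene lists, symbols, positions and sequences were not read. No libraries were near-identical (chi-square per gene of 9.10 or more between any pair). Same-numbered libraries shared deviations from the group means (correlations of 0.17, 0.16 and 0.41, each over the bound of 0.1), so a fit with the number as a block was made. The values do not single out the numbers, since libraries of one kind with different numbers correlated as much (0.24 for control 1 with mimic 2, 0.36 for control 2 with mimic 1, 0.33 for control 4 with mimic 3), and no source says what a number shares.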

Additional observations from a re-analysis of the deposited data

Results flagged for a closer look

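The mimic-high gene with the largest log2 difference had a control library far from the others. Control 3 stood at 138 normalized counts, against 4.22 to 6.11 in the other controls, and its gap to the nearest of them was 0.986 of the range of the group. Over all 106 mimic-high genes 6 had such a control library, which was control 3 in 2 of them, where chance alone flags about 1 in 20 groups.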

How the results depend on the processing

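The number of genes meeting the rule, 106, lay between 104 and 124 with other pseudocounts, arithmetic means, other bounds on the mimic mean (20 or 100), 2 scalings or overlap allowed, apart from 98 with the bound of 100. With 1 library left out it lay between 99 (without control 3) and 129 (without control 1), and 84 to 101 of the 106 genes were shared. In most alternatives the rule was applied again, so the counts called and the share and correlation below come from lists of different size. The count called by limma was 100 of 106. It lay between 87 of 117 (without mimic 2) and 115 of 129 (without control 1), and was 96 of 106 with the replicate block. Without mimic 1 it was 94 of 125 and without mimic 3 90 of 115. For the 100 of 106 the share over all genes tested was 9.18%. For the other counts that share was not taken, so they have no background. The rule used the same contrast, so nothing is read from these counts. The share of high numbers lay between 57.9% and 64.2%, except with the boundary at 50000, where it was 34.0%, against 6.02% of the genes with a mean of 50 or more on the mimic. The cause is the construction, since fewer numbers lie above 50000. The median correlation between the genes was 0.14 and lay between 0.02 (without control 1) and 0.20 in the alternatives. The SD between genes of their own median correlation was 0.23. A bound that wide also takes in the 0.00 of all genes, so it cannot show that the correlation held. The share higher by 1 or more in libraries not used for the choice was 63.0% one way and 36.5% the other, where the choice rested on 1 mimic library. The 2 limma fits on part of the libraries were chosen after seeing the data. The 13 genes of lowest control mean had a median control SD of 0.50 on the log2 scale, the widest of the level bands, and the part of depth in it was not tested.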
